A study of Mus musculus with 17 samples.

Results

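10 genes of lysosomal proteolysis were followed across the 17 bulk RNA libraries of this series: the cystatins Cst7, Cst3 and Cstb and the cathepsins Ctsa, Ctsb, Ctsc, Ctsd, Ctsl, Ctss and Ctsz. They were taken by symbol from a table of normalized read counts that lists 13501 gene symbols, and all 10 members were in the table and were tested.

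Cathepsins are the proteases of endosomes and lysosomes, where they degrade cargo that a phagocyte takes up and process antigens and other proenzymes. Most are cysteine proteases, while cathepsin D is an aspartic and cathepsin A a serine protease, and all are made as inactive precursors. Cystatins are tight-binding inhibitors of the cysteine cathepsins and leave cathepsins A and D alone. In microglia, the resident macrophages of the brain, Cst7 is widely used as a marker of the state seen around amyloid plaques, and Trem2, a lipid-sensing surface receptor, is needed to enter that state.

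The cells were living CD45+CD11b+ cells sorted from mouse brain. Normal microglia (3 libraries) came from untreated wild-type mice without the 5xFAD transgenes. The transgenes are expressed in neurons and give amyloid plaques. Untreated 5xFAD mice gave Trem2 wild-type microglia (3 libraries) and Trem2 knockout microglia (3 libraries). Circulation-derived myeloid cells came from Trem2 knockout 5xFAD mice given bone marrow transplantation (BMT) and PLX5622, which blocks the CSF1 receptor that microglia need to survive. The donors were Trem2 wild type (wild-type transplants, 4 libraries) or Trem2 knockout (knockout transplants, 4 libraries). All transplant hosts carried both the knockout and the transgenes. Cell origin and treatment cannot be told apart between transplants and microglia, since every transplant library had BMT and PLX5622 and no microglia library did. The stated gate does not part donor cells from microglia that a host may still have. Neither the labels nor the protocols state an age or whether libraries are separate animals, so p-values measure the spread between these libraries, which may be technical.

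Libraries held 16044078 to 30606394 reads (median 19254498). Trem2 followed the labels, at 31205 to 53908 normalized reads in the 10 wild-type libraries and 3962 to 5965 in the 7 knockout libraries. The microglial transcription factor gene Sall1 lay at 3420 to 9289 in microglia and 87.4 to 309 in transplants. The sum of 12 microglial markers differed less, at 830292 to 1062320 and 429133 to 521296, and Tmem119 overlapped (75270 to 168308 and 48326 to 82663). Ms4a7, a marker of circulation-derived brain macrophages, lay at 335 to 1309 in microglia and 15783 to 26888 in transplants. Library S26 stood apart from the other knockout microglia libraries (chi-square per gene of 136 and 137 against S25 and S27). Within groups, 3 pairs of libraries (S22/S23, S25/S27 and S30/S31) differed least, at 4.98 to 9.86 against 13.6 to 137 for all other pairs, and results that rest on them are given also without them or with each pair averaged. Neutrophil markers (13 of 14 listed genes in the table) summed to 46030 to 136340 normalized reads in knockout 5xFAD microglia, 4549 to 5808 in wild-type 5xFAD microglia and 8824 to 30615 in the other groups. Oligodendrocyte markers (10 of 10) summed to 24574 and 24872 in the wild-type transplants S30 and S31 against 4533 to 11101 in all other libraries. In bulk samples, fewer cells of a type and less RNA per cell cannot be told apart.

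Promoter sequences are shown for the members that hold the E-box core CACGTG, the centre of the site bound by TFEB and its relatives, which switch on lysosomal genes. RefSeq windows on GRCm38.p6, from 250 bases before to 50 after the start, were matched for 8 of the 10 members (9 windows). The letters CACGTG, searched on both strands, stood in the windows of Ctsa, Ctsd and Ctsl and in 7.15% of all 32851 windows of that length. The longer TCACGTGA, which contains it, stood in Ctsa and Ctsd and in 0.974% of all windows. The stretches lie upstream of the RefSeq start, on the strand of the gene, with CACGTG in capitals. In GENCODE the genes begin at 164832873 (Ctsa), 64370890 (Ctsl) and 142388038 (Ctsd). The Ctsa and Ctsl stretches and part of the Ctsd stretch thus lie inside the genes as annotated there. For Ctsd the stretch is chr7:142387900-142388077 (minus strand), for Ctsa chr2:164833741-164833772 (plus strand) and for Ctsl chr13:64370731-64370770 (minus strand).
Ctsd: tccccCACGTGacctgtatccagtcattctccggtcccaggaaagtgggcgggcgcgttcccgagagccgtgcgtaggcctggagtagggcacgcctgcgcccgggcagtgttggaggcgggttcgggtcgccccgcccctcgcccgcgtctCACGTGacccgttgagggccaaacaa
Ctsa: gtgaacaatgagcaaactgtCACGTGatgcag
Ctsl: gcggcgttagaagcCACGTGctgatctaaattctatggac
The Ctsd stretch holds CACGTG at -245 and -98 from the start, the Ctsa stretch at -12 and the Ctsl stretch at -236. A further match of Ctsa, at 6 bases after the start, is not shown. The purine-rich letters GAGGAAGT, a site of the myeloid factor PU.1, stood on either strand in the windows of Ctsc and Ctss and in 3.20% of all windows. A match of letters describes the sequence and does not show that a factor binds there.

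The members together made up a large share of these transcriptomes. They took 7.95% ± 0.447 of all reads in normal microglia (SD, n = 3), 9.73% ± 0.240 in wild-type 5xFAD microglia (n = 3), 8.45% ± 0.497 in knockout 5xFAD microglia (n = 3), 6.79% ± 0.373 in wild-type transplants (n = 4) and 6.63% ± 0.189 in knockout transplants (n = 4). Cystatin reads, nearly all from Cst3, were 3.83% ± 0.433 of the reads of normal microglia and 1.23% ± 0.136 of those of wild-type transplants. For each read of the 5 cysteine cathepsins there were 2.04 ± 0.196 cystatin reads in normal microglia, 1.20 ± 0.0577 in wild-type 5xFAD microglia, 0.513 ± 0.0557 in wild-type transplants and 0.555 ± 0.0570 in knockout transplants. The ranges of the 2 transplant groups lay below those of the 3 microglia groups. Knockout 5xFAD microglia had a mean of 1.63 ± 0.496, and their highest library was S26 at 2.20. Apoe alone took 12.3% to 16.2% of the reads of transplants and 0.497% to 1.24% of those of microglia, and shares of reads move with such a gene.

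**Figure D1:**
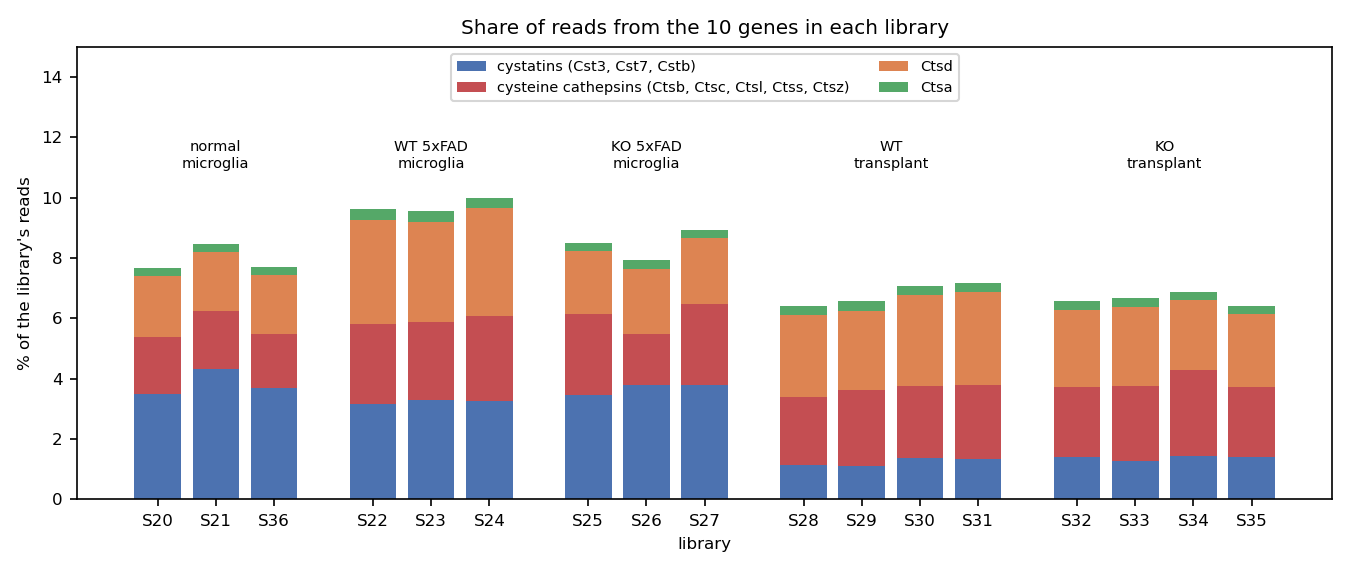
Stacked bars give the percent of each library's reads that came from the cystatins, the 5 cysteine cathepsins, Ctsd and Ctsa, for the 17 libraries in their 5 groups. The cystatin part falls from 3.15% or more in every microglia library to 1.44% or less in every transplant, and the Ctsd part is largest in wild-type 5xFAD microglia.

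Per kilobase of transcript, the order of the members in normal microglia was Cst3, Ctsd, Ctss, Ctsz, Ctsb, Ctsa, Ctsl, Ctsc, Cstb and Cst7. Cst3, the secreted inhibitor cystatin C, stood at 821075 ± 85719 normalized reads per kb and Ctsd at 189762 ± 7285. Cst7 stood last at 337 ± 6.17. Of the neighbours in that order, only Ctsa and Ctsl overlapped in their libraries. The order rests on the first annotated transcript of each gene. That of Ctsl holds 1971 bases and that of Ctsc 2493, while all their exons hold 6168 and 5326. The place of Ctsl depends on that choice. In wild-type 5xFAD microglia Cst7 reached the sixth place at 22896 ± 2041 reads per kb, overlapping Ctsl at 20868 ± 1488. In wild-type transplants Ctsd (337891 ± 41235) and Cst3 (321500 ± 51725) shared the top and overlapped, and Ctsl dropped behind Ctsc and Ctsa to 4398 ± 591.

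**Figure D2:**
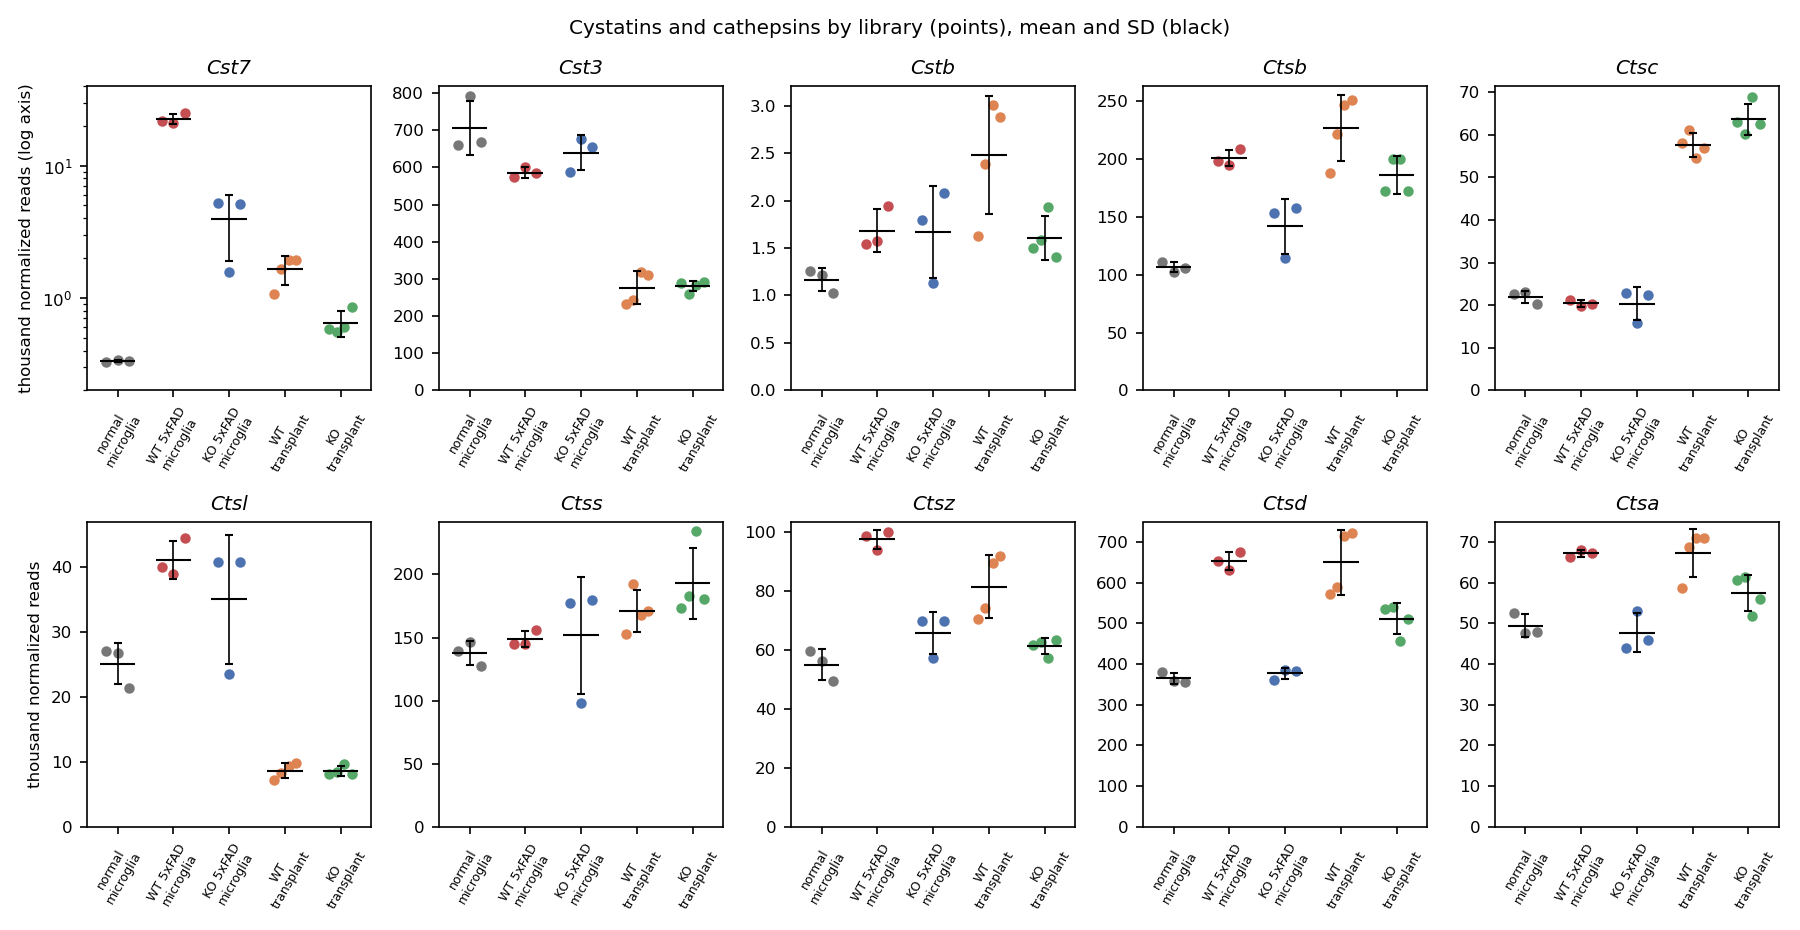
Each panel gives the normalized reads, scaled by 1000, of 1 member in each library (points) with the group mean and SD (black), for the 5 groups; Cst7 has a log axis. Cst7 spans 326 to 24879 reads, Ctsc is high and Ctsl and Cst3 are low in all 8 transplants.

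In Trem2 wild-type 5xFAD microglia, compared with normal microglia, 5 members were higher and none was lower, while 2.83% of the 12074 tested genes were higher and 0.952% lower. The members' median log2 fold change was 0.62, against 0.0037 over all genes tested. A gene was called at an adjusted p under 0.05 in limma, over all genes tested. The 5 were the inhibitor Cst7, the cysteine proteases Ctsb, Ctsl and Ctsz, and the aspartic protease Ctsd.

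Cst7 encodes cystatin F, an inhibitor that reaches endosomes and lysosomes. Its normalized reads were 326, 337 and 335 in normal microglia and 21691, 21157 and 24879 in wild-type 5xFAD microglia. All 3 libraries of the second group lay far above all of the first, a 67.5-fold difference (log2 fold change 6.08 ± 0.33 SE, adjusted p = 3.35e-09). Cst7 lies on chromosome 2 (150570415 to 150578944, GRCm38), as does Cst3 (148871722 to 148875692).

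The proteases moved by much less. Ctsb, a cysteine protease with endo- and carboxypeptidase activity, was at 110776, 102619 and 105918 in normal and at 198676, 194883 and 208263 in wild-type 5xFAD microglia. It was 1.88-fold higher with no overlap (log2 0.91 ± 0.16, adjusted p = 0.00193). Ctsd, the main lysosomal aspartic protease, was at 380879, 357147 and 356139 in normal and at 653670, 631309 and 675157 in wild-type 5xFAD microglia. The groups were again separate (log2 0.84 ± 0.17, adjusted p = 0.00630), though the call was lost without the filter on low values (adjusted p = 0.0784). Ctsz, a lysosomal carboxypeptidase, was at 59475, 56045 and 49322 in normal and at 98434, 93889 and 99924 in wild-type 5xFAD microglia, a separate and 1.78-fold higher group (log2 0.83 ± 0.14, adjusted p = 0.00103). Ctsl, a potent endopeptidase, was at 27158, 26787 and 21469 against 39982, 38944 and 44464. The Ctsl groups did not overlap (log2 0.72 ± 0.18, adjusted p = 0.0303), but its call was lost when any 1 of these 6 libraries was left out, with log2 values of 0.61 to 0.78. With the closest pairs averaged Ctsl lost its call too, while Cst7, Ctsb, Ctsd and Ctsz kept theirs.

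The other 5 members did not pass. Ctsa, the serine carboxypeptidase that protects beta-galactosidase and neuraminidase, had a log2 fold change of 0.44 ± 0.12 (adjusted p = 0.0521) and passed in 6 of the other settings. Cstb, the cytosolic inhibitor cystatin B, had 0.53 (adjusted p = 0.244) and Cst3 had -0.26 (adjusted p = 0.517). Ctsc, the dipeptidyl peptidase that activates granule serine proteases, had -0.10, and Ctss, which trims the invariant chain of MHC class II, had 0.11.

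In Trem2 knockout 5xFAD microglia, compared with the same normal microglia, Cst7 alone was called, higher, against backgrounds of 2.7% of genes higher and 1.21% lower. The members' median log2 fold change was 0.17, against 0.032 over all genes tested. By upper-quartile scaling the genes called over the table were 344 higher and 65 lower, against 326 and 146. Cst7 was at 5177, 1576 and 5148 normalized reads in the knockout libraries S25, S26 and S27, all above the 326 to 337 of normal microglia (log2 3.38 ± 0.33, 10.4-fold, adjusted p = 4.47e-05). The 2 contrasts share the normal libraries.

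Library S26 parted from S25 and S27 for most members. Ctsl was at 23564 in S26 and at 40859 and 40759 in the others, which lie within the range of the wild-type 5xFAD microglia (38944 to 44464). Ctss was at 98331 in S26, the lowest value of all 17 libraries, and at 176950 and 179521 in the others. Ctsc was at 15827 in S26, also the lowest of all libraries, against 22916 and 22377. Ctsd did not part them, at 361888, 385646 and 383220 in S25, S26 and S27. Without S26 the members called higher than in normal microglia were 4, namely Cst7 (log2 3.95), Cstb (0.73, adjusted p = 0.0107), Ctsb (0.55, adjusted p = 0.00975) and Ctsl (0.71, adjusted p = 0.00110). That fit called 2213 of 12047 tested genes higher and 2388 lower, against 326 and 146 with S26. The neutrophil marker sum was 46030 in S26 and 126476 and 136340 in S25 and S27, and the monocyte marker sum (14 of 14) was 11587 against 21832 and 22746, with 4318 to 7523 in the other microglia. Of the microglial markers, Tmem119 (150624 against 75270 and 79525) and Sall1 (9289 against 3644 and 3420) were higher in S26. P2ry12 was lower there (45584 against 67152 and 64608), and the summed list (12 of 12) hardly differed (884661 against 855925 and 862447). The part of these differences in the members' values was not tested.

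**Figure D3:**
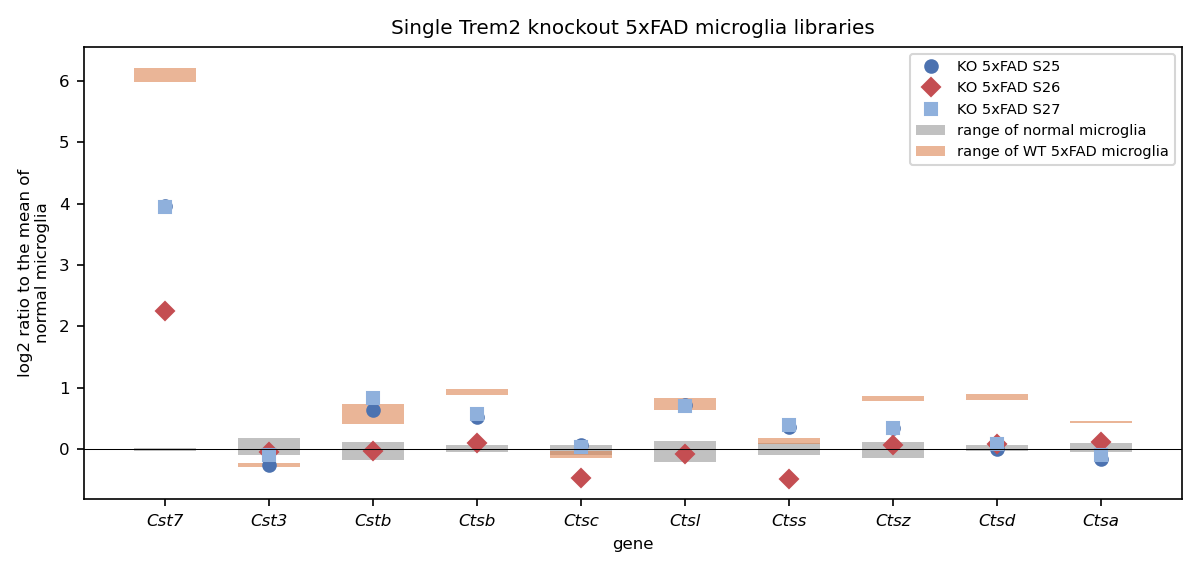
For each member, the log2 ratio of the 3 single knockout 5xFAD microglia libraries to the mean of normal microglia is plotted, with bars for the range of normal (grey) and wild-type 5xFAD (orange) microglia. S25 and S27 lie in or above the orange range for Cstb, Ctsl and Ctss and near the grey range for Ctsd and Ctsa, and S26 lies below them for 7 members.

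The direct comparison of Trem2 wild-type with Trem2 knockout 5xFAD microglia called 4 members higher in wild type and none lower, with 2.59% of all genes higher and 2.5% lower. The members' median log2 fold change was 0.39, against 0.0083 over all genes tested. Cst7 was 6.48-fold higher in wild type (log2 2.70 ± 0.33, adjusted p = 5.67e-05), and its call held in all settings. Ctsd was 1.73-fold higher (log2 0.79 ± 0.17, adjusted p = 0.00922): the wild-type libraries started at 631309 and the knockout libraries ended at 385646. Ctsz was 1.49-fold higher (log2 0.58 ± 0.14, adjusted p = 0.0178), at 69652, 57292 and 69707 in the knockout libraries. Ctsa was 1.41-fold higher (log2 0.50 ± 0.12, adjusted p = 0.0232), at 66264, 67917 and 67362 in wild type and 44043, 53074 and 45991 in knockout. None of these 4 members overlapped between genotypes, though the share of all genes without overlap was not counted.

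The smaller of these calls depended on which libraries entered. Ctsz and Ctsa lost the call without any 1 of the wild-type libraries and with only the groups compared, and Ctsa also without S25 or S27. Ctsd lost it without the filter on low values (adjusted p = 0.0841) and without both S25 and S27 (0.76, adjusted p = 0.147). With each of the closest pairs averaged into 1, only Cst7 remained called (log2 3.02, adjusted p = 0.00114), with Ctsd at 0.80 (adjusted p = 0.105). Without S26 the same 4 were called, in a fit that called 2067 of 12047 genes higher and 1606 lower. Ctsb had a log2 fold change of 0.52 ± 0.16 (adjusted p = 0.0738) with no overlap, and edgeR and DESeq2 on the whole reads called it. Ctsl (0.27), Cstb (0.052), Ctsc (0.022), Ctss (0.023) and Cst3 (-0.12) did not pass, and all 5 overlapped between genotypes. In the knockout microglia, Ctsd and Ctsa stood near normal microglia (log2 0.048 and -0.054, adjusted p = 0.878 and 0.799), while Ctsl and Ctsb had 0.44 and 0.40 (adjusted p = 0.124 and 0.122).

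**Figure D4:**
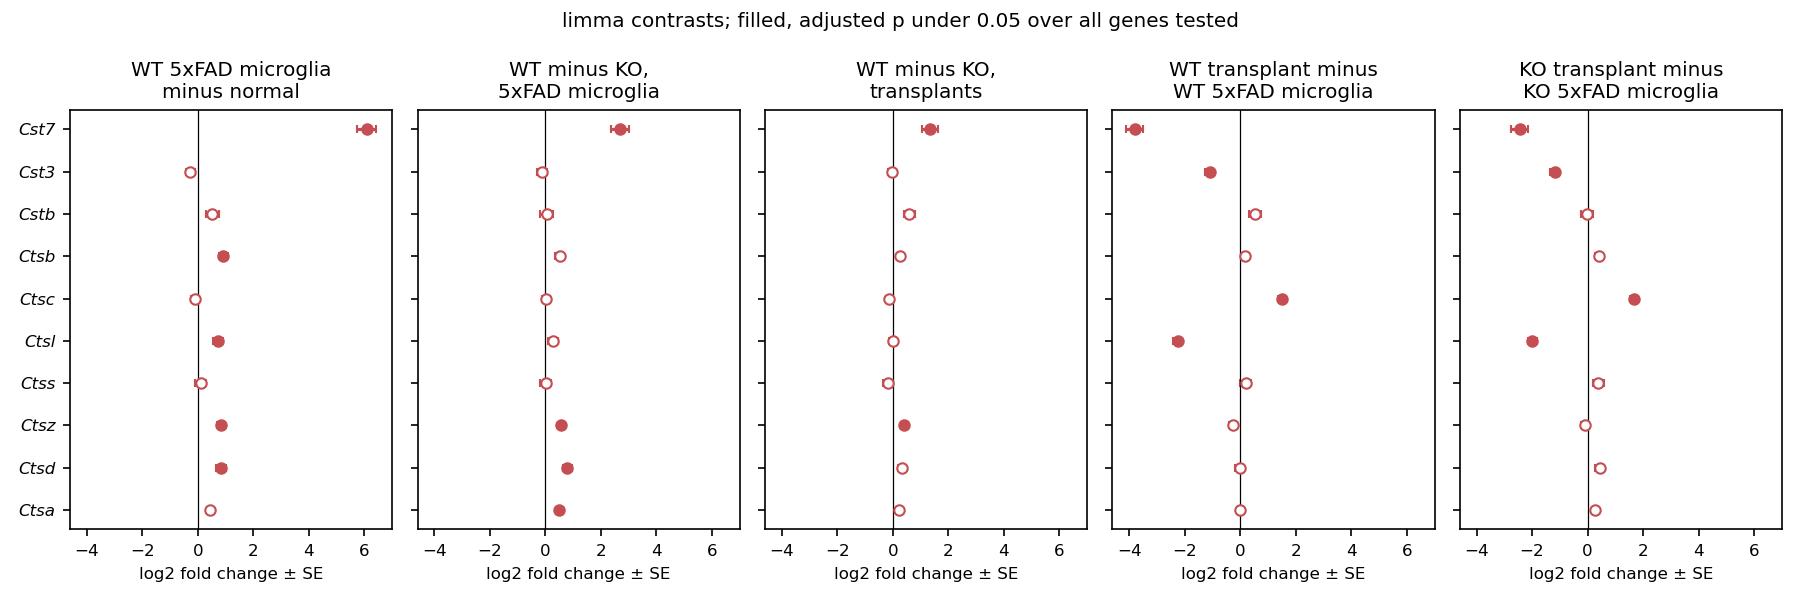
Points give each member's limma log2 fold change with its SE in 5 contrasts, filled where the adjusted p was under 0.05. Cst7 shows the widest moves, from 6.08 in wild-type 5xFAD microglia over normal to -3.80 in wild-type transplants over wild-type 5xFAD microglia, and the 2 right panels share the rise of Ctsc and the falls of Ctsl and Cst3.

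Transplants differed from 5xFAD microglia in 4 members for either genotype: Ctsc was higher, and Cst7, Ctsl and Cst3 were lower. For wild type that is 1 higher and 3 lower member, with 13.6% of all genes higher and 14.6% lower. For knockout it is likewise 1 and 3, with 11.7% and 13.7%. The members' median log2 fold change was -0.0084 for wild type and 0.12 for knockout, against -0.026 and -0.022 over all genes tested. All 4 calls held in all settings for both genotypes. None of the 4 overlapped, but genes without overlap were not counted over the whole table.

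Ctsc is the activator of neutrophil and lymphocyte granule proteases. It was at 19708 to 21318 normalized reads in wild-type 5xFAD microglia and at 58039, 61211, 54496 and 56806 in wild-type transplants (2.82-fold, log2 1.497 ± 0.12, adjusted p = 3.14e-08). In knockout transplants it was at 63101, 60250, 68826 and 62580, against 15827 to 22916 in knockout microglia (log2 1.66 ± 0.12, adjusted p = 1.09e-08). All 8 transplants lay above all 9 microglia libraries.

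Ctsl went the other way. It was at 7255, 8230, 9308 and 9881 in wild-type transplants, 4.77-fold below wild-type 5xFAD microglia (log2 -2.25 ± 0.17, adjusted p = 9.53e-09). In knockout transplants it was at 8119, 8412, 9751 and 8125, 3.96-fold below knockout microglia (log2 -1.99 ± 0.17, adjusted p = 7.18e-08). All transplants were also below the 21469 of the lowest normal library. The ratio of Ctsc to Ctsl reads was 0.879 ± 0.0624 in normal microglia, 0.498 ± 0.0399 and 0.594 ± 0.0677 in wild-type and knockout 5xFAD microglia, and 6.76 ± 1.13 and 7.42 ± 0.365 in wild-type and knockout transplants.

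The cystatins with a signal peptide, Cst3 and Cst7, were both lower in transplants. Cst3 was at 232608, 244005, 319108 and 310240 in wild-type transplants against 572972 to 600484 in wild-type 5xFAD microglia (log2 -1.10 ± 0.17, adjusted p = 5.75e-05). In knockout transplants it was at 288149, 260312, 283360 and 290362 against 586487 to 676415 (log2 -1.19 ± 0.17, adjusted p = 2.74e-05). Cst7 was 14.0-fold lower in wild-type transplants than in wild-type 5xFAD microglia (log2 -3.80 ± 0.31, adjusted p = 2.94e-08) and 5.44-fold lower in knockout transplants than in knockout microglia (log2 -2.44 ± 0.31, adjusted p = 9.77e-06).

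The remaining 6 members did not pass in either comparison. For wild type, Ctsd had a log2 fold change of -0.016 and Ctsa of -0.00048, with overlapping libraries, and Cstb had 0.53 (adjusted p = 0.0703). Ctsz had -0.27 (adjusted p = 0.128) without overlap, and was called lower by TMM scaling (-0.32), by edgeR (-0.32) and without S30 and S31 (-0.43). For knockout, Ctsd had 0.44 (adjusted p = 0.0517) and Ctsb 0.41 (adjusted p = 0.0563), both without overlap. With edgeR on the whole reads Ctsb, Ctsd and Ctsa were called too in the knockout comparison, with log2 values of 0.41, 0.45 and 0.28.

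Between transplants of different Trem2 genotype, 2 members were higher in wild type and none was lower, with 3.75% of all genes higher and 2.99% lower. The members' median log2 fold change was 0.25, against 0.046 over all genes tested. The share of higher genes depended on the scaling: 453 were higher and 361 lower, while TMM scaling gave 366 and 624. Cst7 was at 1079, 1665, 1922 and 1950 normalized reads in wild-type transplants and at 577, 551, 605 and 860 in knockout transplants. The groups did not overlap (2.52-fold, log2 1.34 ± 0.29, adjusted p = 0.0164). Ctsz was at 70471, 74149, 89449 and 91607 against 61628, 62794, 57152 and 63323, also without overlap (log2 0.40 ± 0.12, adjusted p = 0.0478).

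Both calls were lost without the close pair S30 and S31, the 2 wild-type transplants with the high oligodendrocyte marker sums, as were nearly all calls of this contrast (15 of 11940 genes, against 814 of 12074). Without both, Cst7 had a log2 fold change of 1.07 (adjusted p = 0.273) and Ctsz of 0.24 (adjusted p = 0.490). With closest pairs averaged they had 1.25 (adjusted p = 0.0935) and 0.35 (adjusted p = 0.205). The call of Ctsz was lost in 12 settings, TMM scaling among them (adjusted p = 0.0606). Cstb had 0.60 ± 0.19 (adjusted p = 0.0670) and lay at 1632, 2390, 3011 and 2885 against 1496, 1586, 1935 and 1409. Its lowest wild-type library, S28, fell among the knockout libraries. Ctsd had 0.34 ± 0.15 (adjusted p = 0.151) with no overlap, at 572634, 589589, 713735 and 721746 against 535483, 541038, 457551 and 511126, and edgeR and DESeq2 on the whole reads called it (0.27 and 0.34, adjusted p = 0.0391 and 0.00423). The part of the oligodendrocyte material in these values was not tested. S30 and S31 were the highest wild-type transplants in Cst7, Cstb, Ctsz and Ctsd. The same held for Cst3, Ctsb, Ctsl, Ctsa and Trem2, but not for Ctsc and Ctss.

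Whether the Trem2 difference of a member differed between transplants and microglia was tested as an interaction. None of the 10 members passed in limma, while 2.82% of all genes did, and 1 member, Cst7, had an unadjusted p under 0.05. The Cst7 difference by genotype was 1.36 smaller on the log2 scale in transplants (-1.36 ± 0.44, adjusted p = 0.103). Without S25 and S27 it was -2.50 (adjusted p = 0.00141) and without S26 it was -0.79 (adjusted p = 0.0548). Ctsd had -0.45 ± 0.22 (adjusted p = 0.296), and edgeR and DESeq2 on the whole reads called it alone, at -0.52 (adjusted p = 0.0183) and -0.45 (adjusted p = 0.0264). Without S26, Cstb was called (0.80, adjusted p = 0.0489), in a fit that called 1666 of 12047 genes.

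The wild-type transplants were compared with the untreated knockout 5xFAD microglia, which share the hosts' genotype, and with normal microglia. Against knockout 5xFAD microglia, 5 members were higher and 3 lower, with 17.3% of all genes higher and 17.8% lower (median log2 fold change 0.40, against -0.011 over all genes). Ctsc (log2 1.52), Ctsd (0.78), Ctsb (0.68), Cstb (0.58) and Ctsa (0.50) were higher and Ctsl (-1.98), Cst3 (-1.22) and Cst7 (-1.11) lower. The groups overlapped for Cst7 and Cstb. Without S25 and S27, which leaves the single knockout library S26 assumed to vary like the other groups, Cst7 had 0.032. The call of Cst7 was lost in 5 settings, among them those without S25, without S27 and with closest pairs averaged. That of Ctsa was lost in 2 settings, closest pairs averaged among them, and that of Cstb in 11.

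Against normal microglia, 7 members were higher and 2 lower in wild-type transplants, with 16.1% of all genes higher and 14.3% lower (median 0.69, against -0.0093). Higher were Cst7 (log2 2.27, 4.83-fold), Ctsc (1.39), Ctsb (1.08), Cstb (1.05), Ctsd (0.82), Ctsz (0.56) and Ctsa (0.44). Lower were Ctsl (-1.54) and Cst3 (-1.36). None of these 9 overlapped, which was likewise not counted over all genes, and the call of Ctsa was lost without S30 and S31. Ctss had 0.31 ± 0.19 (adjusted p = 0.238).

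Of the 16 other cathepsins listed, 7 were in the table and all were tested. In wild-type transplants compared with wild-type 5xFAD microglia, 3 were higher and 2 lower, with 13.6% of all genes higher and 14.6% lower. Their median log2 fold change was 0.75 against -0.026 over all genes. In knockout the counts were 3 and 1, with 11.7% of all genes higher and 13.7% lower. Ctse, an aspartic protease of endosomes, was at 36.3 to 68.3 normalized reads in normal microglia, 250 to 300 in wild-type 5xFAD microglia and 52.5 to 156 in knockout 5xFAD microglia. It was at 879 to 1174 in wild-type and 857 to 1290 in knockout transplants. Ctse was called higher in wild-type 5xFAD microglia than in normal (log2 2.27 ± 0.32, adjusted p = 2.22e-04) and than in knockout microglia (1.34 ± 0.32, adjusted p = 0.0193). Between transplants it had -0.081 (adjusted p = 0.871), and the interaction was -1.42 (adjusted p = 0.0767).

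Ctsh, an aminopeptidase, was higher in transplants (log2 0.75 ± 0.13 in wild type and 0.90 ± 0.13 in knockout), and Ctsf, a cysteine endopeptidase, was lower (-1.37 ± 0.16 and -1.47 ± 0.16). Ctso was lower in wild-type transplants (-0.41, adjusted p = 0.0183) and had -0.057 in knockout (adjusted p = 0.787), with an interaction of -0.36 (adjusted p = 0.293). Ctsw, known from cytotoxic T and NK cells, was at 76.1 to 666 in wild-type transplants and 367 to 1138 in knockout transplants, and at 44.2 to 186 in microglia. The T and NK cell markers (12 of 13 listed in the table) summed to 484 to 6363 in transplants and 228 to 1829 in microglia. The library with the lowest sum of the transplants, S28, was also the lowest in Ctsw, and their part in Ctsw was not tested.

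Ctsg, a granule protease of neutrophils that Ctsc activates, was at 580 and 595 in S25 and S27, 47.1 in S26, at most 27.2 in the other microglia and at most 140 in transplants. It was called lower in wild-type than in knockout 5xFAD microglia (log2 -5.90 ± 1.42, adjusted p = 0.0201). The neutrophil marker sum is highest in the same 2 libraries. Ctsk did not pass in any contrast and stayed at 31.5 reads or less.

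**Figure D5:**
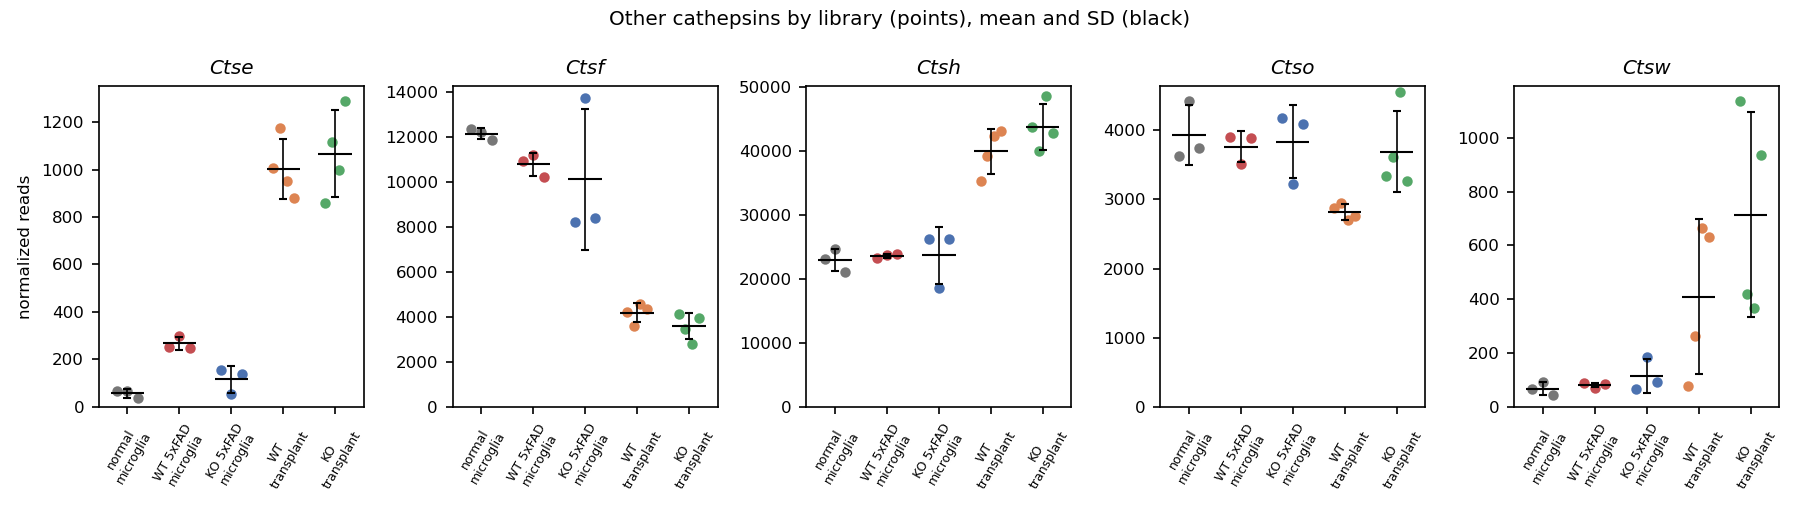
Each panel gives the normalized reads of another cathepsin in each library (points) with the group mean and SD (black), for the 5 groups. Ctse and Ctsh are highest and Ctsf lowest in the 8 transplants, and Ctsw varies from 76.1 to 1138 among them.

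Of 25 other cystatins and stefins listed, 4 were in the table and 2 were tested, and some of the rest may be missing by name. The stefin Stfa2l1 was at 28.8, 4.38 and 41.2 reads in S25, S26 and S27 and at most 16.4 in the other libraries. Between genotypes in 5xFAD microglia it did not pass in limma (log2 -3.73 ± 1.08, adjusted p = 0.0536). Kng2 was called lower in wild-type transplants than in normal and in knockout 5xFAD microglia, and reached 15.9 reads at most. It passed the filter only through the normal libraries S20 and S36 (11.05 and 15.86 reads) and the knockout library S26 (13.13). The filter thus favoured these calls, and no difference is read from them. Among 8 serpins that inhibit cathepsins (7 tested), 4 were higher and none lower in wild-type transplants than in wild-type 5xFAD microglia. Over all genes 13.6% were higher and 14.6% lower. Serpinb8 was at 800 ± 145 against 55.2 ± 12.1 (log2 3.84) and Serpina3g at 162 ± 104 against 26.1 ± 2.54 (2.32). In knockout the count was 3 higher and 1 lower, with 11.7% of all genes higher and 13.7% lower. Serpinb8 was there at 1008 ± 189 against 106 ± 35.6 (3.27).

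Among 11 other listed proteases (10 tested), 3 were higher and none lower in wild-type 5xFAD microglia than in normal. Over all genes 2.83% were higher and 0.952% lower. The 3 were Dpp7, a dipeptidyl peptidase (log2 1.18), Cpq, a carboxypeptidase (0.65), and Scpep1, a serine carboxypeptidase (0.52). Cpq was at 806 ± 39.8 reads in normal microglia, 1265 ± 91.6 in wild-type 5xFAD microglia and 5314 ± 234 in wild-type transplants (2.07 over wild-type 5xFAD microglia). Between genotypes in 5xFAD microglia, Tpp1 (0.54) and Npepps (0.58) were higher and Napsa (-2.35) lower in wild type. Over all genes 2.59% were higher and 2.5% lower there. Napsa, the aspartic protease napsin A, was at 819 ± 138 in knockout and 159 ± 3.89 in wild-type 5xFAD microglia. Lgmn, the asparaginyl endopeptidase that matures several cathepsins, was lower in wild-type transplants (-0.39).

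Of the partners of Ctsa in its lysosomal complex, Glb1, the beta-galactosidase, was higher in wild-type 5xFAD microglia than in normal (log2 0.67) and than in knockout (0.77). Neu1, the neuraminidase, was higher in transplants of both genotypes (0.52 and 0.57). Among 16 sorting genes, 2 were called higher in wild-type than in knockout 5xFAD microglia and none lower. Over all genes 2.59% were higher and 2.5% lower. The 2 were Gnptab, which starts the mannose phosphate tag of lysosomal enzymes (0.95), and Grn, the progranulin gene (0.66). In transplants Sort1, a sorting receptor, was lower (-2.14 in wild type and -1.91 in knockout), and its relative Sorl1 was higher (1.24 and 1.20).

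Of the 4 transcription factor genes of this program (Tfeb, Tfe3, Tfec and Mitf), Tfec was higher in wild-type transplants than in wild-type 5xFAD microglia (38.8 ± 9.88 against 10.1 ± 3.90 reads, log2 1.88), and Mitf was lower in knockout transplants than in knockout microglia (-0.82). Of 17 subunits of the vacuolar ATPase, which acidifies the lysosome, 2 were called higher in wild-type 5xFAD microglia than in normal and none between genotypes. Over all genes 2.83% were higher in the first contrast, and 2.59% were higher and 2.5% lower between genotypes. In wild-type transplants over wild-type 5xFAD microglia 3 were higher and 2 lower, a share near that over all genes (13.6% and 14.6%), with Atp6v0a2 (-1.24) and Atp6v1c1 (-0.87) the lower ones. The 2 higher in wild-type 5xFAD microglia were Atp6v1a (0.79) and Atp6v0d2, which stood at 93.3 ± 18.5 against 0.333 ± 0.577 reads.

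The genes whose pattern was most like that of a member were taken by Pearson's r over the 17 libraries on log2 values, as a description, since the libraries of a group share their condition. For Cst7 they were Baiap2l2 (r = 0.957), Cox6a2, Actr3b, Mamdc2 and Dkk2 (r = 0.931). For Ctsd they were Pld3 (0.984), Gusb, Glb1, Hexa and Aplp2 (0.955). For Cst3 they were Tnfrsf17 (0.994), Tmem44, Pecam1, Ecscr and Tspan7 (0.976). For Ctss they were Ggh (0.938), Pon3, Itm2b, Zwint and Pgrmc1 (0.926).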

How the data were processed

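Sorted CD45+CD11b+ cells gave SMART-Seq v4 libraries, per the labels' protocols. Per the submitters' processing notes, the tools were STAR 2.5.2b, RSEM, HTSeq, bcl2fastq and DESeq2 (3.17 as written there) and the builds mm10 and GRCm38.p6, with no roles stated. The authors deposited 1 normalized signal per gene and library. In all 17 libraries 100% of values were whole reads times 1 step per library, within 0.05 read; the step of S20 is so near 1 that this shows little there. The kit does not mark strand, so reads shared with overlapping genes cannot be assigned: 1742 of 6489 exonic bases of Ctsl overlap the antisense Gm47123 and 395 the pseudogene Gm49230, 808 of 2351 of Ctsd overlap Gm49369, 774 of 6051 of Ctsb overlap Fdft1, and 495 and 324 of 4715 of Ctsa overlap Pltp and Neurl2 (GENCODE on GRCm38).

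The filter asked for 10 or more normalized reads in 3 or more libraries, which 12074 genes passed and 1427 did not. limma 3.58.1 (R 4.3.3) was fitted to log2(value + 1) of all 17 libraries with a mean per group and a trended prior. Tests were two-sided with Benjamini-Hochberg adjustment over all tested genes, called under 0.05. Fold changes are on the log2(value + 1) scale. Lengths are those of the first GENCODE transcript of each gene. Outside the normal group, columns were assigned to groups but not to replicates. The members and lists were chosen with earlier results of these data known. Named genes are the 10 members, Trem2, up to 4 called genes per list and contrast by smallest p, the defining genes of marker lists, and the 5 genes most like Cst7, Ctsd, Cst3 and Ctss without gene models; values of other listed cathepsins and cystatins were chosen after they were seen. Promoters are from RefSeq (GRCm38.p6). The procedure was tested on simulated counts. Alternatives were other pseudocounts (0.5 and 5), no filter, TMM and upper-quartile scaling, a fit of only the groups compared, edgeR 4.0.16 and DESeq2 1.42.0 on the whole reads, and leaving out each library. Fits without S25 and S27, without S30 and S31, and with the closest pairs averaged were added after seeing the data.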

Additional observations from a re-analysis of the deposited data

Results flagged for a closer look

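Ctss in the knockout transplants had 1 library far above the others. S34 stood at 234300 normalized reads, against 173600 to 183200 in the other 3, and the gap to the nearest was 0.842 of the group's whole range. S34 was also the highest of its group in the summed circulation-derived macrophage markers (98736 against 71410 to 77877). Over all genes it also differed more from the other knockout transplants (chi-square per gene of 56.0 to 90.5) than they did from each other (17.6 to 23.3). Of the 10 members in the 2 groups of 4 libraries, 20 cases were looked at and 1 stood out, and chance alone gives about 1 in 20.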

How the results depend on the processing

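The calls of Cst7 in 5xFAD microglia of either genotype over normal and between genotypes, and those of Ctsc, Ctsl, Cst3 and Cst7 between transplants and microglia of the same genotype, held in every alternative run. No paired analysis was possible because the columns outside the normal group carry no distinct replicate number. Over all genes, the counts called ranged over the alternatives from 242 to 1829 for wild-type 5xFAD against normal microglia (457 as reported), 2 to 4601 for knockout (472), 167 to 3673 between genotypes in microglia (615), 15 to 1886 in transplants (814), 2001 to 3919 for transplant against microglia of wild type (3399), 1999 to 4516 for knockout (3062), 2109 to 5874 against knockout microglia (4238), 2396 to 4093 against normal (3672) and 75 to 1666 for the interaction (341). edgeR on the whole reads called 458, 443, 569, 1027, 3409, 3036, 4180, 3717 and 402 genes in that order. No scaling moved the median of all genes by more than 0.072 (log2).

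Of the 10 members, the number called for knockout 5xFAD against normal microglia was 1 as reported, 2 by DESeq2, and 1 to 4 when leaving out 1 library, with 4 without S26. Between genotypes in microglia it was 4, then 2 with only the groups compared, 1 with closest pairs averaged, and 2 to 4 when leaving out 1 library. Between genotypes in transplants it was 2, then 1 without filter, by TMM, by upper-quartile scaling and with only the groups compared, 4 by DESeq2, 0 without S30 and S31 and with closest pairs averaged, and 0 to 3 when leaving out 1 library. For knockout transplant against knockout microglia it was 4, and 7 by edgeR and DESeq2. For wild-type transplant against knockout microglia it was 8, and 5 with closest pairs averaged. For the interaction it was 0, and 1 by edgeR, by DESeq2 and without S25 and S27, with 0 to 1 when leaving out 1 library.

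Log2 values that changed sign lay near 0 in most cases, and the cause was not tested. Without S25 and S27, knockout 5xFAD against normal microglia gave Cstb -0.042, Ctsl -0.085, Ctss -0.49 and Ctsa 0.10; knockout transplant against knockout microglia gave Cstb 0.50 and Ctsz 0.095; and wild-type transplant against knockout microglia gave Cst7 0.032. Without S30 and S31, Ctsl between transplants was -0.15 and Cst3 in the interaction -0.11. With closest pairs averaged, Ctss was -0.056 for knockout 5xFAD against normal microglia, Ctsl -0.046 between transplants and Cstb 0.11 for knockout transplant against microglia. Upper-quartile scaling gave Ctsa 0.00078 for knockout 5xFAD against normal, Cstb -0.0024, Ctsc -0.033 and Ctss -0.032 between genotypes in microglia, and Ctsl -0.015 between transplants; TMM gave -0.067 there. edgeR gave Ctsc -0.0020 and Ctss -0.033 between genotypes in microglia and Ctsl -0.066 between transplants, and DESeq2 gave Ctss -0.029 in the first and Ctsa 0.0037 for transplant against microglia of wild type. Leaving out 1 library gave, for knockout 5xFAD against normal microglia, Ctsc -0.22 to 0.046, Ctss -0.061 to 0.37 and Ctsa -0.13 to 0.00095. Between genotypes in microglia it gave Cstb -0.21 to 0.23, Ctsc -0.15 to 0.12 and Ctss -0.26 to 0.17. Between transplants it gave Cst3 -0.11 to 0.045 and Ctsl -0.061 to 0.088. For transplant against microglia of wild type it gave Ctsd -0.070 to 0.041 and Ctsa -0.028 to 0.065, for knockout transplant against microglia Cstb -0.28 to 0.16, for wild-type transplant against knockout microglia Ctss -0.065 to 0.37, and for the interaction Ctsc -0.26 to 0.0069 and Ctss -0.34 to 0.095.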
